A study of Mus musculus with 24 samples.

Results

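The genes of the cytosolic ribosomal proteins, the Rps proteins of the small subunit and the Rpl proteins of the large subunit, were followed across 24 one-colour arrays of mouse embryonic fibroblasts. Members were genes whose symbol is Rps or Rpl with a number and at most 1 letter, or is Rplp0, Rplp1, Rplp2 or Rpsa, with pseudogenes left out, and each was read by its brightest probe. This gave 79 members of 20166 named genes, 30 of the small and 49 of the large subunit. Of these, 76 passed the filter on dim probes and were tested, among 14463 tested genes in all. The other 3, Rpl3l, Rpl10l and Rpl39l, are paralogs known for expression in muscle or testis, and their probes were well above background on at most 3 arrays.

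The study set wild-type fibroblasts beside 4 altered genotypes to find target genes of the integrated stress response, the programme that starts when the translation factor eIF2α is phosphorylated. Perk-null cells (PERKKO) lack a kinase that phosphorylates eIF2α under endoplasmic reticulum (ER) stress, Atf4-null cells (ATF4KO) lack its transcription factor, and eIF2a A/A cells carry an eIF2α with alanine in place of serine at the phosphorylated site. Each of these and the wild type was left untreated or given tunicamycin, which blocks N-glycosylation and causes ER stress, at 2 µg per mL, for 12 h by the labels. Fv2E-PERK cells carry a transgene of a drug-activated PERK and were left untreated or given the agent labelled AP for 12 h, at a dose the labels do not state. Wild-type groups had 4 arrays and all other groups 2. The labels give neither the origin of the lines nor whether replicates were separate cultures, so the p-values rest on a spread among samples that may be only technical.

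A ribosome holds a single copy of most ribosomal proteins, and their genes are usually expressed together and at high levels. Most of their mRNAs begin with a C at the cap followed by a run of pyrimidines, the 5′ terminal oligopyrimidine (TOP) tract, through which mTORC1 and LARP1 adjust their translation and stability. When eIF2α is phosphorylated, most translation falls while that of Atf4 rises, and ATF4 in turn induces genes of amino acid supply and of the stress response.

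The start of a member's mRNA can be read from RefSeq windows around annotated start sites (GRCm38.p6), which were given for 59 of the 79 members. A C followed by at least 4 pyrimidines, beginning within 5 bases of the annotated start on the gene's strand, was found in 27 of the 59 (45.8%), against 21.5% of 17491 protein-coding genes. The 10 bases before and the 20 bases from the start are printed for members that the results below turn on, first those with such a run, whose letters are in capitals, and then those without it.
Rpl18, chr7:45718061-45718090, plus strand: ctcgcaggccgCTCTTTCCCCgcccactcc
Rpl13a, chr7:45128726-45128755, minus strand: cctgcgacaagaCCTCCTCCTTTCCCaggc
Rpl12, chr2:32961702-32961731, plus strand: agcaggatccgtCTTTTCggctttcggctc
Rpl27a, chr7:109519185-109519214, plus strand: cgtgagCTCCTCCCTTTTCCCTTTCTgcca
Rpl38, chr11:114668570-114668599, plus strand: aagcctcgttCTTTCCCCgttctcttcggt
Rps27l, chr9:66946076-66946105, plus strand: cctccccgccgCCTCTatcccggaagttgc
Rpl10a, chr17:28328461-28328490, plus strand: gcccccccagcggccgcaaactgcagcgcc
Rpl37a, chr1:72711250-72711279, plus strand: ctcgccggtctaaaaccgcgcatgcgcatt
Rps13, chr7:116334171-116334200, minus strand: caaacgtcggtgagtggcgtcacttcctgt
Rps3, chr7:99483690-99483719, minus strand: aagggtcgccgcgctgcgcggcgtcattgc
These windows end in the first bases of the 5′ untranslated region. A window without the run shows only that these letters do not lie at that annotated start. TGATGNAA, a core through which ATF4 and its C/EBP partners are known to bind, searched on both strands in the whole window of 250 bases before to 50 after the start, was in none of the 59 members' windows and in 4.13% of all genes'.

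No spot was saturated, 45.1% to 58.2% of probes were well above background on an array, and precision was limited by the number of arrays. The arrays came from 3 scan runs. The Atf4-null arrays shared run 1 with the first 2 wild-type replicates, and there treated and untreated arrays sat on separate slides, so slide and treatment cannot be told apart. The Perk-null arrays shared run 2 with wild-type replicates 3 and 4. Fv2E-PERK and eIF2a A/A made up run 3, each on a slide of its own. Wild-type arrays of run 1 carried Xist and lacked the Y-linked Ddx3y, and those of run 2 the reverse, so the wild-type arrays came from cells of different sex, and cell origin and run cannot be told apart. Perk-null, Atf4-null and eIF2a A/A arrays carried Xist and lacked Ddx3y, and Fv2E-PERK arrays the reverse. Within run 2, Perk-null and wild-type cells thus differed in sex, whose part in their differences was not tested. Atf4 read -4.27 to 2.79 on Atf4-null arrays and 6.56 to 9.14 on all others. Eif2ak3, the Perk gene, read -0.47 to 0.28 on Perk-null and -0.05 to 1.79 on wild-type arrays, which overlap, and where its probe lies relative to the deletion was not given. The second untreated Perk-null array has a scanner file name that gives 24 h, which its label does not. Of 12 fibroblast markers, 10 were well above background on every array, while Lum and Postn were so on 5 and 15 arrays.

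Levels and changes below are on a log2 scale, as signal relative to the 75th percentile of the array. A gene was called at a limma adjusted p under 0.05, with Benjamini-Hochberg adjustment over all 14463 genes.

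With array percentile scaling, most ribosomal protein genes of wild-type cells were modestly higher with tunicamycin, and most of these calls were lost under quantile normalization. Of 76 tested members, 48 were called higher and none lower, where 21.2% of all tested genes were called higher and 16.3% lower. The median change was 0.36 over members and 0.07 over all genes, and 71 members had a positive change. Under quantile normalization 16 of the 48 calls were kept, 3 members were called lower and 46 of 76 changes were positive. Both subunits took part, with 20 of 30 small and 28 of 46 large subunit members called higher, at medians of 0.35 and 0.36. In 41 members the lowest treated array exceeded the highest untreated one, and in 13.7% of all genes. In the same comparison 7 of 12 fibroblast markers were called lower and none higher (median -1.12), and their summed linear signal, relative to the 75th percentile, was 941 to 1356 on untreated and 637 to 853 on treated arrays. In bulk RNA fewer cells of a type and less RNA per cell cannot be told apart. The same sum was 689 to 698 untreated and 336 to 345 with AP in Fv2E-PERK cells. In Perk-null cells it was 291 to 305 untreated and 348 to 388 treated. The part of the wild-type shift in the members' rise was not tested.

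**Figure D1:**
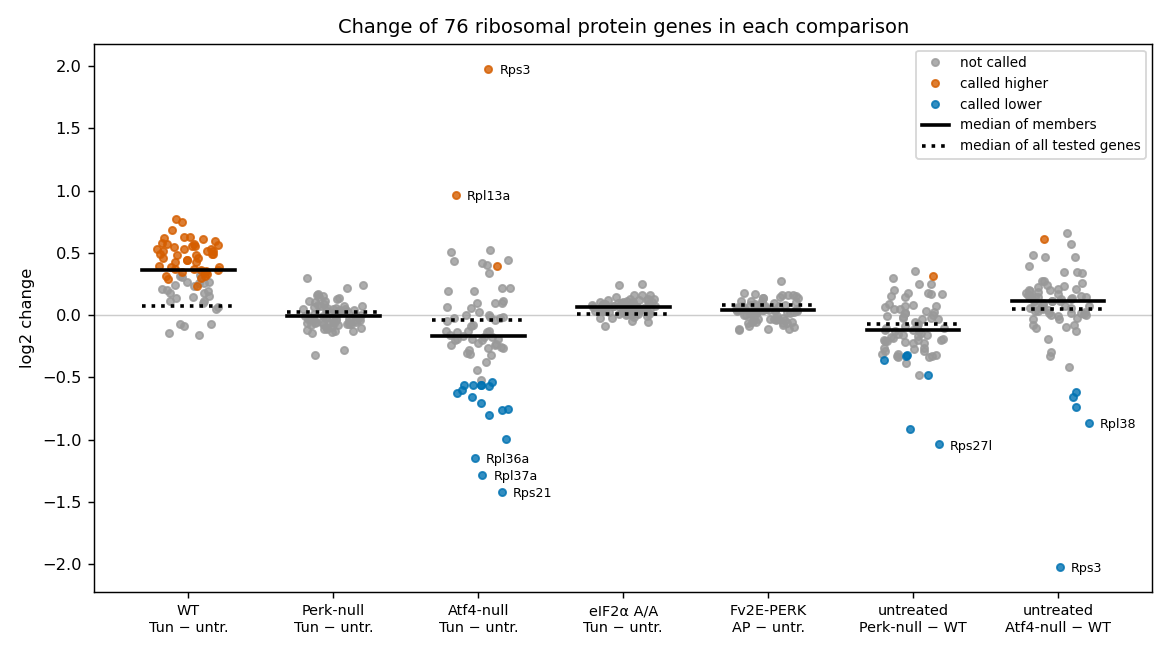
Log2 change of the 76 tested members (points) in the 5 responses and in untreated Perk-null and Atf4-null against wild-type cells, with the median of members (solid line) and of all tested genes (dotted line). Orange and blue points were called higher and lower. Wild-type points lie mostly above 0 with 48 called, none is called in Fv2E-PERK, eIF2a A/A or Perk-null cells, and Atf4-null points spread from -1.42 to 1.98.

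Rpl18, a large subunit protein, gave a steady rise. It read 7.95, 7.71, 8.08 and 8.11 on the untreated and 8.65, 8.49, 8.58 and 8.61 on the treated wild-type arrays. The groups did not overlap, and the change was 0.62 ± 0.10 (SE, n = 4 per group, limma adjusted p = 0.000153). Rpl3, which lies near the peptidyl transferase centre, read 8.09, 6.63, 8.11 and 8.14 untreated and 8.74, 8.35, 8.45 and 8.51 treated. Its change of 0.77 ± 0.23 (limma adjusted p = 0.0165) was the highest among members, but untreated replicate 2 lay far below the other arrays, and without it the change was 0.40. Rpl10a, the protein of the L1 stalk, read 8.38, 7.88, 8.89 and 8.89 untreated and 9.25, 8.97, 9.26 and 9.29 treated. Here too every treated array lay above every untreated one, with a change of 0.68 ± 0.14 (limma adjusted p = 0.00139).

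Rises of the same order came from proteins of very different places in the ribosome. They included Rpl13a (0.63 ± 0.17) and Rpl19 (0.62 ± 0.11) of the large subunit, with limma adjusted p of 0.00925 and 0.000451. In the small subunit, Rps6, the substrate of S6 kinase, changed by 0.57 ± 0.11, Rps18 by 0.55 ± 0.12 and Rps12 by 0.53 ± 0.09 (limma adjusted p = 0.000968, 0.00148 and 0.000224). The probes of Rps12 disagreed, since its other probe changed by -0.01. Of the P-stalk, which recruits elongation factors, Rplp1 (0.53 ± 0.14) and Rplp2 (0.35 ± 0.10) rose (limma adjusted p = 0.006 and 0.0136). Their anchor Rplp0 changed by 0.15 ± 0.12 (adjusted p = 0.351), and Rpsa, the laminin receptor homologue of the small subunit, by 0.32 ± 0.14 (adjusted p = 0.0898).

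A few members stayed outside this pattern. Rpl37a (-0.16 ± 0.12), Rps21 (-0.15 ± 0.29), Rpl21 (-0.09 ± 0.10), Rpl36a (-0.07 ± 0.13) and Rps28 were the 5 with negative changes, and none of them was called. Rpl21 was read by a dim probe, at -0.49 to 0.32 on the wild-type arrays. Rpl38, which is known for selective translation of Hox mRNAs, read 8.82, 8.56, 8.56 and 8.63 untreated and 9.16, 8.06, 8.74 and 8.81 treated, with a change of 0.05 ± 0.19 (adjusted p = 0.872).

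The rise was seen in both wild-type runs and was larger in run 1. In run 1 treated and untreated wild-type arrays sat on separate slides, so slide and treatment cannot be told apart there. In run 2 they shared a slide. Within run 1 the median over members was 0.51, with 68 of 76 positive, and within run 2 it was 0.24, with 70 of 76 positive. In 67 members the change was positive in both runs, in 5 negative in both. With only the 4 wild-type arrays of a run tested beside that run's other arrays, 0 members were called higher in run 1 and 19 in run 2, 18 of them among the 48. Leaving out any single wild-type array kept 37 to 47 of the 48 calls.

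**Figure D2:**
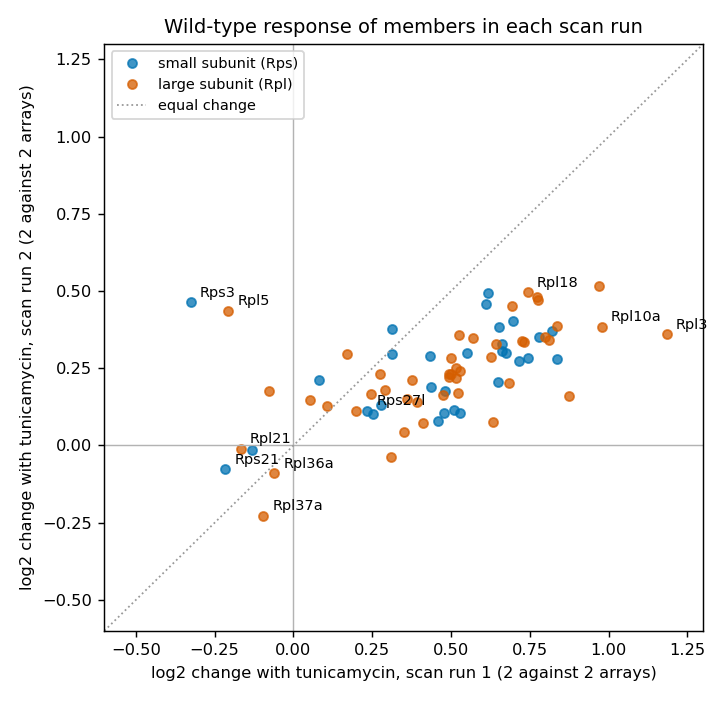
Log2 change with tunicamycin of each tested member in wild-type cells of scan run 1 (x axis) and run 2 (y axis), each from 2 treated and 2 untreated arrays. Blue points are small subunit and orange points large subunit members, and the dotted line marks equal changes. 67 of 76 points lie above 0 on both axes, and 65 lie on the side of the larger change in run 1.

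Both the calls and the size of the wild-type rise depended on how arrays were put on a common scale. Under quantile normalization, which forces the same distribution on every array, 16 members were called higher and 3 lower, and the member median was 0.03 against -0.02 over all genes. With normexp background correction 42 members were called higher (median 0.33), and with scaling to the median of detected probes 40 were (median 0.31). The same scalings were applied to other genes with bright probes. Of 127 such genes, with a mean level over 7.36 (the 10th percentile of members), 28 were called higher and 6 lower with the array percentile (median 0.15), and 10 higher and 42 lower under quantile normalization (median -0.15). With normexp and median scaling the median of these genes was 0.12 and 0.09. Of the members' other probes, 75 of 82 that were well above background on all arrays had a positive wild-type change, with a median of 0.38. These probes were read with array percentile scaling only, so they cannot show whether the rise depends on scaling. Of all 14463 tested genes 8111 had a positive change.

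Members whose annotated start carries the pyrimidine run had a median change of 0.39 in wild-type cells, with 21 of 27 called higher. Members without it had a median of 0.26, with 12 of 29 called higher. These 56 are the tested members with a RefSeq window, and the counts are a description without a test.

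No such rise was called in the other 3 lines with an altered PERK or eIF2α. In Perk-null cells 0 of 76 members were called in either direction by limma and 0 passed an unadjusted p under 0.05, where 1.87% of all genes were called higher and 0.408% lower (2.28% together). Changes ran from -0.32 (Rpl11) to 0.30 (Rpl10), with a median of -0.01. In eIF2a A/A cells 0 members were called, and 0 at an unadjusted p under 0.05, where 3.08% of all genes were called higher and 1.82% lower (4.9% together). There 69 of 76 changes were positive but small, with a median of 0.06 and a highest value of 0.25 (Rplp0), beside 0.01 over all genes. Under quantile normalization that median was 0.01 with 44 positive.

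Activation of Fv2E-PERK without tunicamycin likewise gave 0 called members, and 0 at an unadjusted p under 0.05, where 2.79% of all genes were called higher and 1.28% lower (4.07% together). The median was 0.04, below the 0.08 over all genes, and changes ran from -0.12 (Rpl36a) to 0.28 (Rpl5). Rpl18 read 8.41 and 8.53 untreated and 8.61 and 8.64 with AP, which do not overlap, a change of 0.15 ± 0.14 (limma adjusted p = 0.66, n = 2 per group). Without overlap, 14 of 76 members were higher with AP and 2 lower, where 45.4% of all genes were higher and 27.6% lower. With 2 arrays per group the SE of a member's change was 0.12 to 0.54.

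The differences from the wild-type response were tested directly, and these comparisons share the wild-type arrays. For Perk-null cells 6 members responded less than in wild-type cells and none more, where 6.63% of all genes were called lower and 6.52% higher (13.2% together), so the members' share of 7.89% called lower was near the background. They included Rpl19 (-0.66 ± 0.19), Rpl12 (-0.62 ± 0.19), Rpl18 (-0.59 ± 0.17), Rpl34 (-0.51 ± 0.14) and Rps12 (-0.49 ± 0.15), with limma adjusted p of 0.0278 to 0.0461. For Rps12 the other probe differed by -0.13. The median difference over members was -0.38, with 71 of 76 negative, beside -0.05 over all genes. Within run 2, which holds the Perk-null arrays, none of the 6 calls was kept and the median difference was -0.25, where the wild-type median change was 0.24. Rpl19, a protein with a long helix that reaches from the large to the small subunit, had the largest of these differences. It read 8.25, 8.08, 8.23 and 8.28 untreated and 9.10, 8.77, 8.64 and 8.81 treated in wild-type cells, which do not overlap, and 8.18 and 7.97 untreated and 7.94 and 8.14 treated in Perk-null cells, which do.

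For eIF2a A/A cells 4 members responded less and none more, where 10.1% of all genes were called lower and 8.12% higher, a share of members below the background. They included Rpl19 (-0.62 ± 0.19), Rpl18 (-0.59 ± 0.17) and Rpl34 (-0.43 ± 0.14), with limma adjusted p of 0.0244 to 0.0483, and the member median was -0.30 beside -0.06 over all genes. Both sets of calls moved with single arrays and with scaling. Under quantile normalization 0 members were called lower and 1 higher in each comparison, with medians of -0.03 and -0.04. For Perk-null cells 0 of the 6 calls were kept without untreated Perk-null replicate 1, treated replicate 1 or treated replicate 2, and 1 without untreated replicate 2. From 1 to 3 were kept without untreated wild-type replicate 1 or 2 or treated wild-type replicate 1, 2 or 4. For eIF2a A/A cells 0 of the 4 calls were kept without any 1 of its 4 arrays, and 1 or 2 without untreated wild-type replicate 1 or 2 or treated wild-type replicate 1 or 4.

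Ribosomal protein genes of Atf4-null cells did not rise as a group, and their responses were uneven. With tunicamycin 17 members (22.4%) were called lower and 3 higher, where 17.1% of all genes were called lower and 12% higher. The member median was -0.17 beside -0.04 over all genes, and 54 of 76 changes were negative. Of the 127 other genes with bright probes, 49 (38.6%) were called lower and 22 higher, with a median of -0.32. Under quantile normalization 36 of these were called lower and 23 higher (median -0.04). Called falls of members came from both subunits (7 Rps and 10 Rpl members). Those beyond -0.7 besides the members described next were Rpl21 (-0.99, read by a dim probe), Rpl27a (-0.80), Rpl7a (-0.76), Rps25 (-0.75) and Rpl14 (-0.71).

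Against the wild-type response, the change in Atf4-null cells was called lower for 37 members and higher for 1, Rps3. Of all genes 19.5% were called lower and 10.9% higher (30.5% together). A lower change can be a lost rise or a fall, and Rpl37a changed by -0.16 in wild-type and -1.28 in Atf4-null cells. The median difference was -0.56 over members and -0.13 over all genes. The other genes with bright probes were not counted in this comparison. Their median change was 0.15 in wild-type and -0.32 in Atf4-null cells, where the member medians were 0.36 and -0.17. Among members, Rpl27a had the lowest adjusted p. It read 8.27 and 8.69 untreated and 7.77 and 7.59 treated in Atf4-null cells, and 8.21, 8.28, 8.31 and 8.33 untreated and 8.80, 8.72, 8.49 and 8.59 treated in wild-type cells. The treated arrays thus lay below the untreated ones without overlap in the mutant and above them in the wild type, a difference of -1.17 ± 0.17 (limma adjusted p = 0.000229). Rpl14 differed by -1.15 ± 0.20 (adjusted p = 0.000767), and its 2 Atf4-null groups read 8.60 and 8.86, then 7.86 and 8.19.

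These counts moved with processing. Under quantile normalization 12 members were called lower in Atf4-null cells (median -0.06). Against the wild-type response 7 were called lower (median -0.17). With normexp these counts were 38 (50%) and 54. Of the 127 other genes with bright probes, normexp called 68 (53.5%) lower in Atf4-null cells. Their median was -0.58, beside -0.42 over members. Treated Atf4-null replicate 1 had the lowest 75th percentile of all arrays, 111 intensity units against 208 to 418 elsewhere, and without it 18 members were called lower. For the Atf4-null response and its difference from wild type, counts dropped without untreated replicate 2 or treated replicate 2 of the Atf4-null arrays. Within run 1 alone 0 were called in either comparison. The macrophage marker Itgam and 3 other haematopoietic markers summed to 28.7 to 88.2 on treated and 10.6 to 20 on untreated Atf4-null arrays (linear signal relative to the 75th percentile), with Ptprc above background on 5 of 24 arrays. The sum came mostly from Itgam, at 3.23 to 6.45 (log2) over all arrays, where Cd3e read -0.85 to 1.22. Only 2 of these markers were tested, and in Atf4-null cells they went opposite ways, by -0.66 and 1.91. The sum was also high elsewhere, at 11.2 to 65.5 on treated and 14.9 to 25.2 on untreated wild-type arrays and 54.0 to 85.3 on untreated eIF2a A/A arrays, and its part in the result was not tested.

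Some members of Atf4-null cells stood far from the rest. Rpl37a, a small zinc-binding protein of the large subunit, read 8.86 and 8.95 untreated and 7.86 and 7.39 treated, and both wild-type groups lay at 8.19 to 8.99. It fell by 1.28 on the log2 scale (SE 0.18, limma adjusted p = 0.000112). Rpl36a read 6.97 and 7.52 untreated and 6.12 and 6.07 treated, a change of -1.15 ± 0.18 (adjusted p = 0.000359), and a second probe changed by -1.12. Rps21, a small subunit protein, read 5.57 and 6.61 untreated and 3.81 and 5.54 treated. Its change of -1.42 ± 0.40 (adjusted p = 0.0166) rested on the value of 3.81, since without that array it was -0.55 and not called.

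Rps3, a small subunit protein at the mRNA entry channel that also has a role in DNA repair, went the other way. It read 5.39 and 3.20 on untreated and 5.87 and 6.68 on treated Atf4-null arrays, against 6.71, 6.32, 7.08 and 7.24 on untreated wild-type arrays. The untreated level was thus lower by 2.02 in the mutant (-2.02 ± 0.51, limma adjusted p = 0.00986), and the response was 1.98 ± 0.54 (adjusted p = 0.0135). Without untreated replicate 2 these were -0.92 and 0.88, and neither was called. A second, dimmer Rps3 probe did not share the pattern, at 2.38 and 2.28 untreated and 2.19 and 1.79 treated.

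Rpl13a, which is known to leave the ribosome in the interferon response, also disagreed between probes. Its brightest probe read 6.62 and 7.74 untreated and 8.29 and 8.0 treated in Atf4-null cells (0.97 ± 0.24, adjusted p = 0.00795), and the other probe read 6.09 and 6.38, then 5.38 and 5.47. In wild-type cells the probes gave changes of 0.63 and 0.97. The direction of Rpl13a in Atf4-null cells therefore depends on the probe. Rps12 rose by 0.40 ± 0.12 in Atf4-null cells (adjusted p = 0.0264), and its other probe changed by 0.54, while in wild-type cells that probe changed by -0.01.

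**Figure D3:**
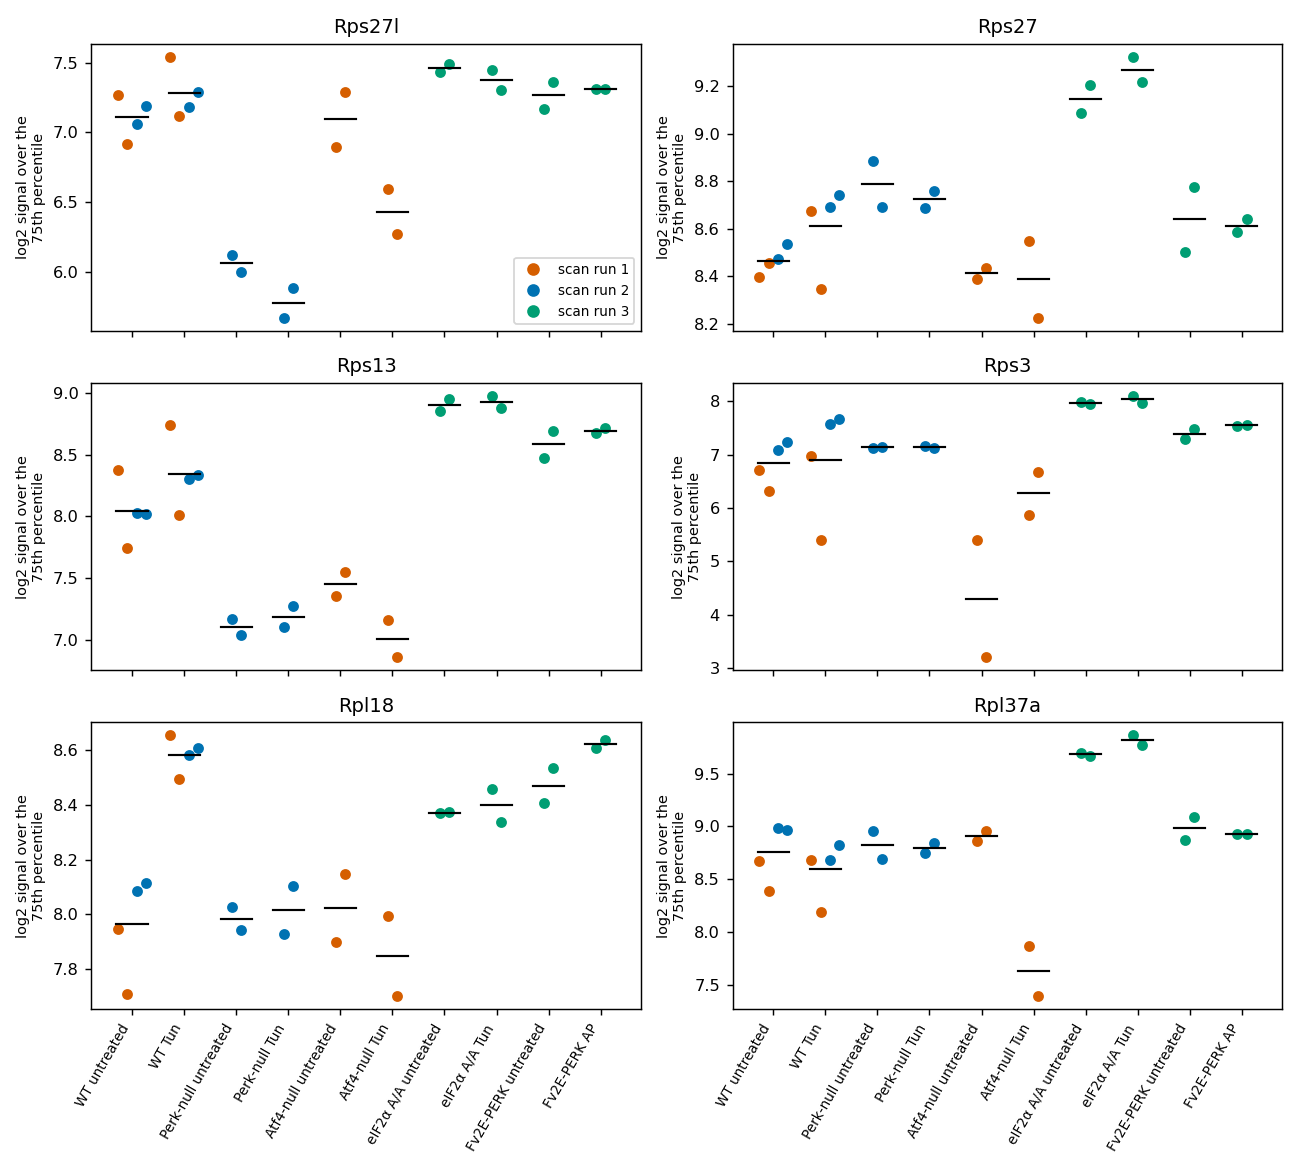
Level (log2, relative to the 75th percentile) of 6 members on every array (points, coloured by scan run) with group means (bars). Rps27l is low on all 4 Perk-null arrays, Rps13 on Perk-null and Atf4-null arrays, Rps3 on untreated Atf4-null arrays and Rpl37a on treated Atf4-null arrays, while Rpl18 separates treated from untreated wild-type arrays and Rps27, the paralog of Rps27l, is not low in Perk-null cells.

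How many members differed between untreated Perk-null and wild-type cells depended on scaling. Of 76, 6 were called lower and 1 higher in untreated Perk-null cells, where 24.8% of all genes were called lower and 16.3% higher. The median was -0.12 beside -0.07 over all genes. Quantile normalization gave 13 lower and 1 higher (median -0.15), and scaling to the median of detected probes gave 3 lower and 4 higher, with 37 of 76 changes positive. Rps27l, a paralog of Rps27 that p53 is known to induce, read 6.12 and 6.0 on untreated Perk-null arrays against 7.27, 6.92, 7.06 and 7.19 in wild-type cells. The groups were far apart, with a difference of -1.04 ± 0.17 (limma adjusted p = 0.000138), and within run 2 it was -1.07. Treated Perk-null arrays read 5.67 and 5.88. Its paralog Rps27 read 8.88 and 8.69 in untreated Perk-null and 8.40, 8.46, 8.47 and 8.54 in wild-type cells, a difference of 0.25 ± 0.13 (adjusted p = 0.146).

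Rps13, a small subunit protein at the bridge to the large subunit, was the other strongly shifted member. It read 7.17 and 7.04 in untreated Perk-null cells and 8.38, 7.75, 8.03 and 8.02 in wild-type cells (-0.92 ± 0.20, limma adjusted p = 0.00184). Its second probe read 7.64 and 7.57 against 7.80, 7.58, 8.0 and 7.97, a smaller difference of -0.37. Rps13 was also lower in untreated Atf4-null cells, at 7.35 and 7.55 (-0.62 ± 0.20, adjusted p = 0.0395).

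The remaining calls in untreated Perk-null cells were smaller. Rpl24 was lower by 0.48 (-0.48 ± 0.14, adjusted p = 0.0142), Rps4x, Rps25 and Rpl35a were lower by 0.36, 0.33 and 0.32 (-0.36, -0.33 and -0.32), and Rpl7 was higher by 0.31 ± 0.11 (adjusted p = 0.0341). Leaving out 1 array gave 2 to 8 members called lower, with 2 or 3 without wild-type replicate 3 or 4 or either Perk-null array, and within run 2 alone it was 17. The Perk-null arrays also differed in cell type markers. The 5 epithelial markers summed to 48.8 to 61.0 on Perk-null and to 1.92 to 4.46 on wild-type arrays, mostly through Krt18, while the 12 fibroblast markers summed to 291 to 388 against 637 to 1356. The part of these differences in the lower Rps27l and Rps13 levels was not tested.

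Calls between untreated Atf4-null and wild-type cells also moved with scaling. Of 76, 5 were called lower and 1 higher, where 10.7% of all genes were called lower and 10.4% higher, with a median of 0.11 beside 0.05 over all genes. Normexp gave 5 lower and 6 higher, and quantile normalization 6 lower and 9 higher. With the mean over all probes of a gene 1 of the 6 calls was kept. Besides Rps3 and Rps13 the lower members included Rpl38 (-0.86 ± 0.26, limma adjusted p = 0.0251) and Rpl13a (-0.74 ± 0.23, adjusted p = 0.0295). Rpl21, read by a dim probe, was higher (0.61 ± 0.13, limma adjusted p = 0.00315). Rpl38 read 7.52 and 8.01 in Atf4-null and 8.82, 8.56, 8.56 and 8.63 in wild-type cells, but its other probe read 8.48 and 8.52 against 8.41, 8.30, 8.50 and 8.56. Nor did the other probes of Rps3 and Rpl13a share the lower level, with differences of 0.49 and 0.63. For Rps13 the other probe differed by -0.35. Leaving out 1 array gave 2 to 5 members called lower, with 2 without untreated wild-type replicate 1 or Atf4-null replicate 1 and 3 without Atf4-null replicate 2.

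The level of the whole family was set side by side on every array. The median over members read 8.29, 8.07, 8.46 and 8.46 on the untreated and 8.84, 8.52, 8.66 and 8.77 on the treated wild-type arrays. The groups did not overlap. Perk-null arrays read 8.43 and 8.36 untreated and 8.30 and 8.39 treated, and Atf4-null arrays 8.21 and 8.37 untreated and 8.24 and 7.94 treated. Fv2E-PERK arrays read 8.55 and 8.78, then 8.70 and 8.65 with AP. The highest medians were on eIF2a A/A arrays, at 9.03 and 9.09 untreated and 9.11 and 9.0 treated. That order depended on scaling, since under quantile normalization untreated eIF2a A/A arrays (16.81 and 16.85) lay below untreated Fv2E-PERK arrays (16.90 and 16.94), and since no group of run 3 was also scanned in run 1 or 2, run and genotype cannot be told apart.

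**Figure D4:**
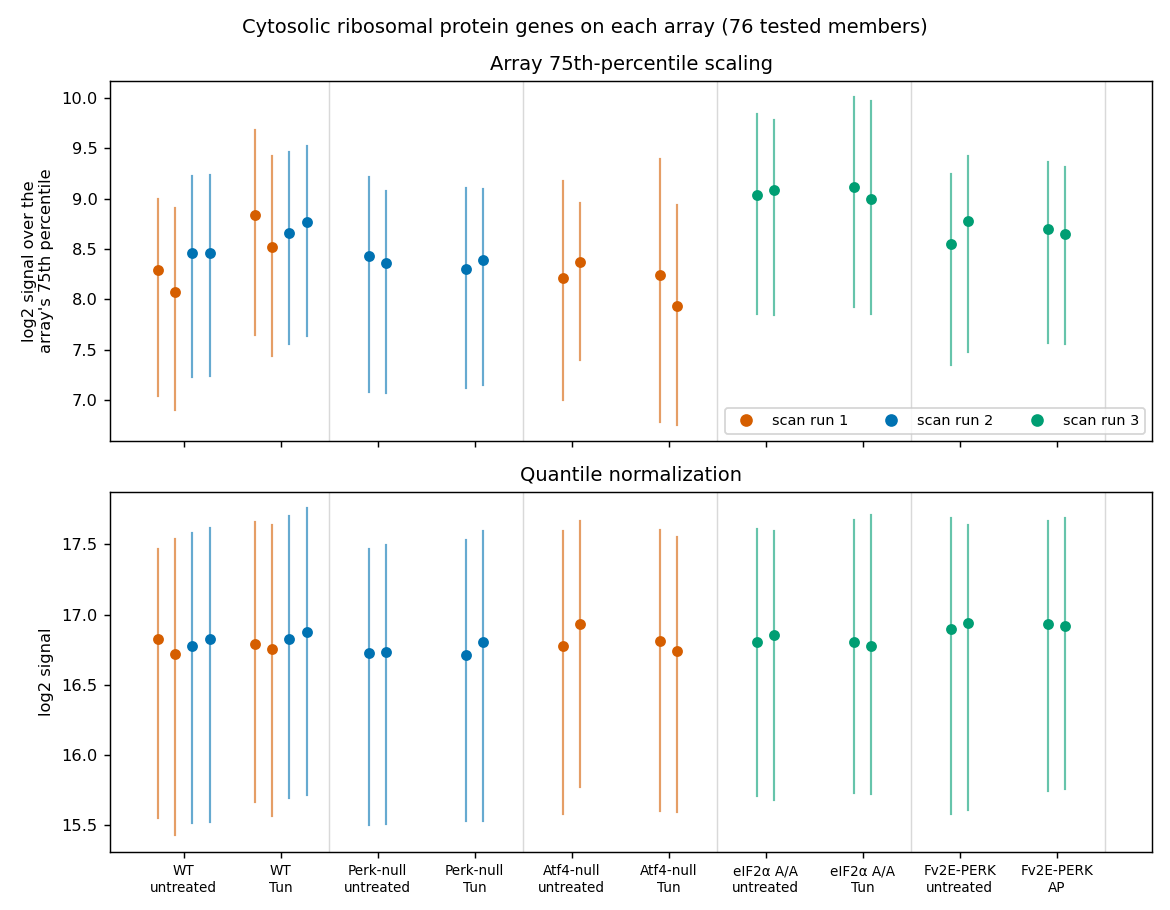
Median level of the 76 tested members on each array (points, coloured by scan run) with the span between the outer deciles of members (lines), for array percentile scaling (upper panel, log2 signal over the 75th percentile) and quantile normalization (lower panel, log2 signal). Treated wild-type arrays (8.52 to 8.84) lie above untreated ones (8.07 to 8.46) in the upper panel, and the groups overlap in the lower panel.

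Members differed in how much they varied over the 24 arrays. Rps18 (SD 0.26), Rpl34 (0.26) and Rpl36 (0.27) varied least, and Rps3 (1.09), Rps21 (0.77) and Rps13 (0.71) most, beside a median SD of 0.35. Rpl34 illustrates a steady member with a clear wild-type response. It read 8.73, 8.64, 8.82 and 8.96 untreated and 9.32, 9.10, 9.21 and 9.29 treated (0.44 ± 0.08, limma adjusted p = 0.000616).

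Other genes of the translation machinery were read from lists chosen with earlier results known. The 48 ribosome assembly factors, nucleolar proteins that process rRNA and build subunits, were read first. In wild-type cells 41 were called higher and none lower, with a median of 0.71 that stayed between 0.62 and 0.71 under all 4 scalings. There 21.2% of all genes were called higher. Rrp9, a protein of the U3 snoRNA particle, rose by 1.19 ± 0.19 (limma adjusted p = 0.00015) and Nop14 by 1.11 ± 0.15 (adjusted p = 3.8e-05). In eIF2a A/A cells 7 assembly factors were called lower and none higher (median -0.53), where 1.82% of all genes were called lower. In Atf4-null cells 9 of 48 (18.8%) were called lower and none higher (median -0.46), near the 17.1% of all genes called lower, and quantile normalization gave 5 lower and 2 higher and normexp 22 lower and none higher. In Fv2E-PERK cells 47 of 48 changes were positive but only Nop14 was called (0.88 ± 0.21, adjusted p = 0.031), with a median of 0.32. Of all 14463 genes 8530 had a positive change there, with a median of 0.08. In Perk-null cells none of the factors was called (median 0.08). The difference from the wild-type response was called lower for 41 factors in eIF2a A/A, 40 in Atf4-null and 11 in Perk-null cells. Of all genes 10.1%, 19.5% and 6.63% were called lower in these comparisons. In untreated Perk-null cells 41 of the 48 were called lower than in wild type before treatment and 1 higher. There 24.8% of all genes were called lower and 16.3% higher. The median of the factors was -1.14, while the member median there was -0.12.

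The RNA polymerase I list held 10 genes, for subunits of the enzyme that makes the rRNA precursor and for its initiation factors. Of these, 6 were called higher in wild-type cells and none lower (median 0.45). In that response 21.2% of all genes were called higher and 16.3% lower. With normexp 5 of the 10 were called higher (median 0.35), and with scaling to the median of detected probes 4 were (median 0.39). The largest rises were those of the subunit gene Polr1b (0.92 ± 0.19, limma adjusted p = 0.0011) and the initiation factor gene Taf1d (0.63 ± 0.17, adjusted p = 0.0071). Of 12 TOP mRNAs that encode no ribosomal protein, 6 were called higher and 1, Hnrnpa1, lower. The largest rises were those of Eef1g, a subunit of the elongation factor 1 complex (0.76 ± 0.11, adjusted p = 5.6e-05), and of Npm1, the nucleolar protein nucleophosmin (0.75 ± 0.12, adjusted p = 0.00025). In Atf4-null cells 7 of the 12 were called lower and none higher (median -0.57), where 17.1% of all genes were called lower. That count was 2 under quantile normalization (median -0.17) and 9 with normexp. The lowest value there was that of Hnrnpa1, a splicing factor, at -2.06 ± 0.24 (adjusted p = 2.8e-05). Of 8 ribosomal protein genes with other kinds of symbols, Rack1, Rps3a1, Rpl36al and Rpl22l1 were called higher in wild-type cells. Of 77 mitochondrial ribosomal protein genes 28 were called higher and 3 lower in wild-type cells (median 0.24), and 1 higher and 27 lower in Atf4-null cells (median -0.30), and quantile normalization gave 16 higher and 11 lower in the former and 10 higher and 15 lower in the latter.

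**Figure D5:**
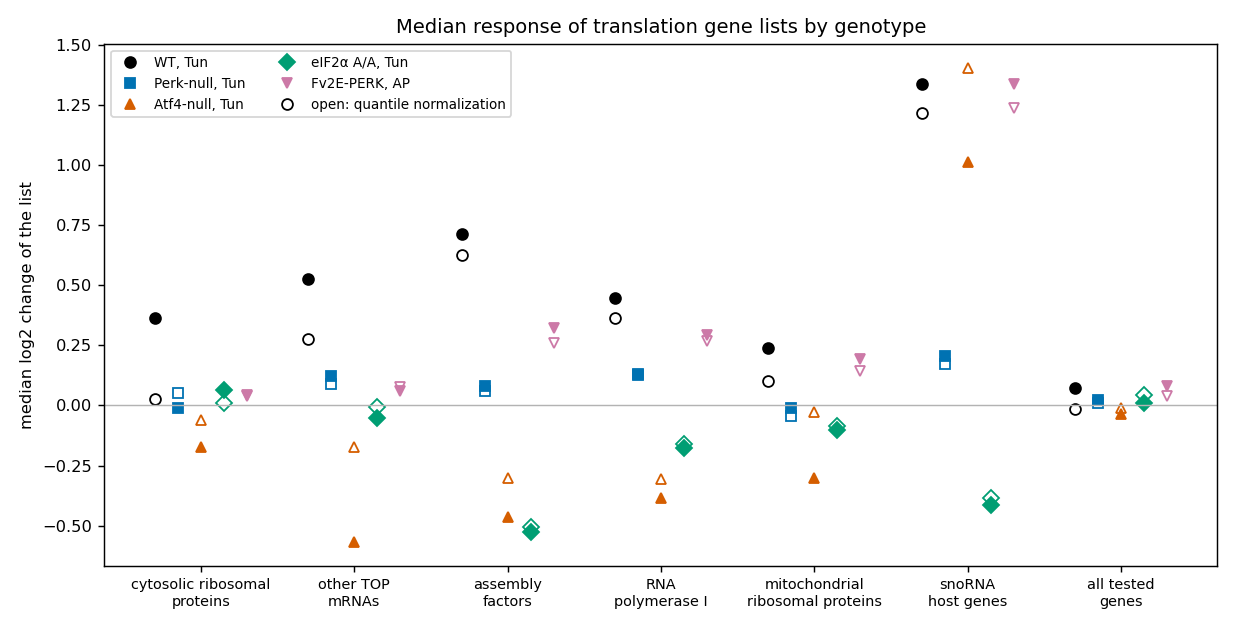
Median log2 change of cytosolic ribosomal proteins and of other translation gene lists in the 5 responses (symbols), with array percentile scaling (filled) and quantile normalization (open). In wild-type cells the median of cytosolic ribosomal proteins moves from 0.36 to 0.03 between the scalings and that of assembly factors from 0.71 to 0.62.

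Host genes of small nucleolar RNAs, whose spliced transcripts also begin with TOP tracts and whose introns carry guides of rRNA modification, were the last list. Of 4 tested, Snhg1, Snhg6 and Snhg12 rose in wild-type cells by 1.47 ± 0.12, 1.21 ± 0.11 and 2.19 ± 0.12 (limma adjusted p = 2e-07, 6.8e-07 and 2.3e-09). They also rose in Atf4-null cells, by 1.43 ± 0.17, 0.59 ± 0.15 and 1.67 ± 0.17, and with AP in Fv2E-PERK cells, by 1.67 ± 0.17, 1.00 ± 0.15 and 1.76 ± 0.17. Snhg12 read 1.56, 1.54, 2.28 and 2.61 untreated and 3.56, 3.38, 4.89 and 4.93 treated in wild-type cells, 3.27 and 3.44 untreated and 4.91 and 5.15 treated in Atf4-null cells, and 3.13 and 3.24 untreated and 4.97 and 4.92 with AP in Fv2E-PERK cells. In none of these lines did its groups overlap. In eIF2a A/A cells Snhg12 read 4.26 and 4.36, then 3.73 and 3.49, and fell by 0.70 (SE 0.17, adjusted p = 0.023), while Snhg1 and Snhg6 changed by -0.51 and -0.32 and were not called. In Perk-null cells the 3 changed by 0.48, -0.06 and 0.59, with none called, and each response was lower than in wild-type cells (differences of -0.99, -1.27 and -1.60, adjusted p = 0.0052, 0.00057 and 0.00015). The fourth, Snhg3, changed by 0.09 ± 0.17 in wild-type cells (adjusted p = 0.7).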

How the data were processed

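Each of 24 arrays, in 10 groups, was an Agilent 1-colour array. Per the file headers, spots were read by Feature Extraction (version 10.7.1.1). The deposited intensity values (processed signals, background-subtracted by the scanner software per the file headers) were divided by the array's 75th percentile and log2 transformed. The authors' deposited log2 table was an alternative. After array and probe offsets were removed, 99.3% of its values lay within 0.001 of those computed here, its column medians ran from -0.317 to 0.49, and the baseline of its centring is unknown.

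Of 55681 probes, 26625 were named through their accession and RefSeq, giving 20166 genes, each read by its brightest probe. Among the named probes, 57 had names that conflicted between array designs, and the name of the later design was used. A filter on dim probes (1 or more groups with the scanner's above-background flag on each of their arrays) kept 14463 genes and put aside 5703. Coordinates in the files were not used.

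A linear model with group means and a scan run term was fitted over all arrays (limma 3.58.1, statmod 1.5.0, R 4.3.3), with 13 residual and 2.23 prior degrees of freedom, after tests on simulated data. Alternatives changed the scaling, the background correction, the filter, the probe rule, the run, slide and replicate terms and the arrays used.

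Members and lists were chosen with earlier results of these data known. Named members were the P-stalk, Rpsa and paralog lists, the 3 called members with the largest rise and fall in each comparison, those over 1 from the member median, and those of largest and smallest SD. Levels were not ranked between probes, so the part of the rule on highest and lowest levels was not used. Named genes of other lists were the largest called rises and falls in wild-type cells. Rps6, Rps18, Rps12, Rpl7a, Rps25 and Rpl14, the snoRNA hosts across genotypes and some smaller calls were named after their values were seen. Results of 2 members are counted but not reported by name here.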

Additional observations from a re-analysis of the deposited data

Results flagged for a closer look

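In groups of 4 arrays, 2 of 56 tests of a lone extreme array (Dixon's test) were positive, where chance gives about 1 in 20. Rpl3 read 6.63 on untreated wild-type replicate 2, and Rpl10a read 8.97 on treated wild-type replicate 2, each the lowest of its group.

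The response to tunicamycin differed from that of wild-type cells by a limma interaction test for these members, among others. In Perk-null cells the differences were -0.49 for Rps12, -0.66 for Rpl19, -0.62 for Rpl12, -0.59 for Rpl18 and -0.51 for Rpl34. In eIF2a A/A cells they were -0.62 for Rpl19, -0.59 for Rpl18 and -0.43 for Rpl34. In Atf4-null cells the large subunit differences were -0.76 for Rpl10a, -1.12 for Rpl37a, -1.07 for Rpl36a, -0.59 for Rpl12, -1.17 for Rpl27a, -1.15 for Rpl14, -0.79 for Rpl18, -0.51 for Rpl7, -0.81 for Rpl24, -0.90 for Rpl21, -0.67 for Rpl34 and -0.65 for Rplp2. Small subunit differences there were 1.91 for Rps3, -0.83 for Rps27l and -0.75 for Rps13.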

How the results depend on the processing

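Counts are of members called. Quantile normalization gave 16 higher in the wild-type response, 7 lower for Atf4-null minus wild type, 0 for Perk-null and 0 for eIF2a A/A minus wild type, and 13 lower in untreated Perk-null cells. Normexp gave 38 lower in the Atf4-null response and 2 each for Perk-null and eIF2a A/A minus wild type, and median scaling gave 3 in untreated Perk-null cells. The largest difference between array medians was 1.18, and 0.228 and 1.02 under quantile normalization and median scaling. Without the filter on dim probes 0 were lower for Perk-null and 0 for eIF2a A/A minus wild type, and 3 in untreated Perk-null cells. The mean over probes gave 2 lower in untreated Atf4-null cells and turned the Atf4-null response of Rpsa from 0.19 to -0.57 (limma adjusted p = 0.0347). The causes were not tested.

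Without a run term 11 were lower in the Atf4-null response, 0 for Perk-null and 0 for eIF2a A/A minus wild type, and 3 and 2 in untreated Atf4-null and Perk-null cells. Run 1 alone gave 0 in the wild-type, Atf4-null, Atf4-null minus wild-type and untreated Atf4-null comparisons. Run 2 alone gave 19 for the wild type, 0 for Perk-null minus wild type and 17 for untreated Perk-null cells, and run 3 alone gave 1 each for Fv2E-PERK and eIF2a A/A cells. Fits to only the groups compared, which have fewer samples, gave 29 for the wild type, 0 and 10 for the Atf4-null response and its difference, 0 for Perk-null minus wild type, and 0 and 3 for untreated Atf4-null and Perk-null cells. Slide as a random block gave 3 for Perk-null and 2 for eIF2a A/A minus wild type. Blocks added after seeing the data gave 56 for Atf4-null minus wild type (scan day) and 3 for untreated Perk-null cells (slide).

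The replicate block gave 45 in the wild-type response, 2 for Perk-null and 2 for eIF2a A/A minus wild type, and 3 in untreated Perk-null cells, and left the other counts within 1.5 times. Correlations of same-numbered samples ran from -0.47 to 0.07, so the numbers were not taken to pair samples. Crossed pairing of the Perk-null arrays, which is their slide, gave 4 lower for Perk-null minus wild type.

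Leaving out 1 array gave 37 to 47 for the wild type, 5 to 21 for Atf4-null, 24 to 44 for its difference, 0 to 6 for Perk-null and 0 to 5 for eIF2a A/A minus wild type, 2 to 5 and 2 to 8 for untreated Atf4-null and Perk-null cells, and 0 in the Perk-null, eIF2a A/A and Fv2E-PERK responses. All counts from the deposited table were within 1.5 times.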
